A study of Mus musculus with 16 samples.

Results

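The endoplasmic reticulum (ER) genes described here are 36 mouse genes that fold, check and export secreted proteins or respond when that work is disturbed. They were taken by symbol from a list of members, out of 25719 genes counted in the deposited files, and all 36 were found there and passed the expression filter that left 14803 genes for testing. They fall into 10 role groups: chaperones, J-domain co-chaperones, protein disulfide isomerases, stress sensors, stress transcription factors, ATF4 and CHOP target genes, ER-associated degradation, CREB3L factors, the translocon, and the COPII coat with its procollagen cargo receptor.

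RNA was sequenced from tail tendon fascicles, the collagen-rich strands of the mouse tail, in 8 wild type and 8 knockout libraries. Per the series' design text the knockout is ScxCre;Vhlf/f, that is, both Vhl alleles are floxed and Cre is driven by the tendon gene Scx, while the controls are given only as wild type. VHL is the part of a ubiquitin ligase that marks the hypoxia-inducible factor HIF1α for destruction, and the series asks how HIF1α acts in overloaded tendon. Age, sex and strain are not given in the sources used here, the labels name no single cell type but the whole tissue, and nothing states that each library is a separate animal, so p-values measure the spread between these libraries.

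Secretory proteins enter the ER through the SEC61 translocon, are folded by chaperones and oxidised by disulfide isomerases, and leave in vesicles coated with COPII. Procollagen is too long for ordinary vesicles and needs the receptor TANGO1, encoded by Mia3. When unfolded proteins gather, the sensors ATF6, IRE1 (Ern1) and PERK (Eif2ak3) start the unfolded protein response, in which ATF6 and the spliced form of XBP1 raise chaperones and degradation factors, while PERK phosphorylates eIF2α and favours translation of ATF4. The same eIF2α step is reached by kinases that sense amino acid shortage, heme shortage or viral RNA, which is why the ATF4 arm is also called the integrated stress response. Tendon fibroblasts make type I collagen in bulk, and OASIS, encoded by Creb3l1, is an ER membrane factor known from bone to activate Col1a1.

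The wild type libraries held between 10792900 and 16379401 counts and the knockout libraries between 10488355 and 18753254. Levels below are CPM (counts of a gene per fixed library total) with library sizes scaled by the trimmed mean of M-values (TMM), and differences are log2 fold changes of knockout over wild type with their standard error (SE). Tests are two-sided quasi-likelihood F tests of edgeR with Benjamini-Hochberg adjustment over all 14803 tested genes, with an adjusted p of 0.05 as the threshold. Vhl read 20.5 ± 3.69 CPM in wild type libraries and 9.35 ± 1.25 in knockout libraries (SD, n = 8 each), and the groups did not overlap (log2 fold change −1.13, edgeR adjusted p = 9.64e-08). Col1a1 and Col1a2 together took between 12.0% and 29.2% of the counts in the wild type libraries (median 24.6%) and between 7.70% and 18.4% in the knockout libraries (median 12.5%). Wild type replicate 3 stood apart, since its 112199 CPM of type I collagen lay inside the knockout range of 66032 to 168432, while the other 7 wild type libraries lay above every knockout library. The tendon fibroblast list summed to between 137669 and 387503 CPM in the wild type and between 83574 and 185201 in the knockout, most of it type I collagen. Of its 11 genes 7 were lower in the knockout, Col1a1 and Col1a2 among them, and 1 was higher (median log2 fold change −0.78). Of all tested genes 22.7% were lower and 25.6% higher. In 3 genes of the list the groups did not overlap, all lower, where 8.61% of all tested genes were lower without overlap.

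Markers of some other cell types also moved with genotype, where 25.6% of all tested genes were higher and 22.7% were lower. The summed CPM of 10 endothelial markers ran from 29.5 to 48.02 in the wild type and from 36.6 to 471 in the knockout, with 5 of 7 tested genes higher. For 8 mural cell markers it ran from 35.4 to 206 and from 115 to 1798 (5 of 6 tested genes higher), and for 6 erythroid markers from 15.1 to 50.7 and from 77.8 to 562 (5 of 5 tested genes higher). The 16 skeletal muscle markers ran from 74.7 to 4989 and from 185 to 9712, with 1 of 16 higher. The 10 macrophage markers ran from 1178 to 1724 and from 1287 to 1912, with 3 of 10 higher. The share of muscle markers called higher was below that of all tested genes and the macrophage share near it. The low muscle share does not show equal levels, since the median log2 fold change of the 16 muscle markers was 1.53. Their summed CPM had a median of 351 over wild type libraries and 919 over knockout libraries, and the ranges overlapped widely. The 8 chondrocyte markers ran from 831 to 1816 and from 155 to 499, with 3 of 7 tested genes higher and 2 lower. Plasma cells, which carry very high levels of ER chaperones, left little trace: the 10 B and plasma cell markers summed to between 12.1 and 22.7 CPM in the wild type and between 7.57 and 17.1 in the knockout, and Jchain, Mzb1 and Pou2af1 had at most 3 counts in every library. In bulk tissue, fewer cells of a type and less RNA per cell cannot be told apart, and the part of these other cell types in the results below was not tested.

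The unfolded protein response reaches its genes through short DNA elements, and 6 promoters are shown because they carry these elements and belong to genes whose results differ. The sequences are the 250 bases before the RefSeq start site, in mouse build GRCm38.p6, written 5′ to 3′ on the gene's strand, with the motif matches in capitals. In Hspa5, Hsp90b1 and Dnajc3 the capitals mark the ER stress element ERSE (CCAAT and CCACG with 9 bases of any kind between them, either strand), which ATF6 and XBP1 bind with NF-Y. In Herpud1 they mark first an amino acid response element (AARE, TGATGCAA, either strand), the kind of site ATF4 binds, and then ERSE-II (ATTGG and CCACG with 1 base of any kind between them). In Chac1 they mark an AARE and in Sec24d the unfolded protein response element UPRE (TGACGTGG), which XBP1 binds.
Hspa5 (chr2:34771840-34772089, plus strand): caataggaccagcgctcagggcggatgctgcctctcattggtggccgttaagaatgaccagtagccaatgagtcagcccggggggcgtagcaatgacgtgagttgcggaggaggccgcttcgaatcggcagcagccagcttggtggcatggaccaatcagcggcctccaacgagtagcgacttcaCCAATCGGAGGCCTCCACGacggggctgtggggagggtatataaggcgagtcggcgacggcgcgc
Hsp90b1 (chr10:86705445-86705694, minus strand): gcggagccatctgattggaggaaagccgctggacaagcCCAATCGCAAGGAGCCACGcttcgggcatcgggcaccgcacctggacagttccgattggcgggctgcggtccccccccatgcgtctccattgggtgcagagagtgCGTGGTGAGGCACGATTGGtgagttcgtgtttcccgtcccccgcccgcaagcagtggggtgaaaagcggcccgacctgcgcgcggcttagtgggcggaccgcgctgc
Dnajc3 (chr14:118937682-118937931, plus strand): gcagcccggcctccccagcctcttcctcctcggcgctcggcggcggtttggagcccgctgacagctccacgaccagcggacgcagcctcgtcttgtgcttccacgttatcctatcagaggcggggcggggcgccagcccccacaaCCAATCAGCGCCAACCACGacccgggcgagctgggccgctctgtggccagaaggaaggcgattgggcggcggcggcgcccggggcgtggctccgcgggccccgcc
Herpud1 (chr8:94386179-94386428, plus strand): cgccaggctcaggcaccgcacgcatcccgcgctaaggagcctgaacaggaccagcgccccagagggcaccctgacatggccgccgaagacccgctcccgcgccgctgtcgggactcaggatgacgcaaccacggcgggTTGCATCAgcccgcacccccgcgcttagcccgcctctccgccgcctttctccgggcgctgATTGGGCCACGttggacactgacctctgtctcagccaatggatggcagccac
Chac1 (chr2:119350992-119351241, plus strand): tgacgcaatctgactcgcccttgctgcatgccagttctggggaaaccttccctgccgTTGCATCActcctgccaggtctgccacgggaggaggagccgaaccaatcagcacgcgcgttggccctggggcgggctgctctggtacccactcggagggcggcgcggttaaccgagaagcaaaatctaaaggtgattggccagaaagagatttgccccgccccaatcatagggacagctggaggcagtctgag
Sec24d (chr3:123267246-123267495, plus strand): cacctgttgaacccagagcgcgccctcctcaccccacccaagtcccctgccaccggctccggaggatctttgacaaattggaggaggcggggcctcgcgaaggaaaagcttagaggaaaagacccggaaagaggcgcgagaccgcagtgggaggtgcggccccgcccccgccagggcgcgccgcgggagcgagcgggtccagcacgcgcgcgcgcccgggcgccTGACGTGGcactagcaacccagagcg

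RefSeq entries were matched for 31 of the 36 members, those not matched being Hyou1, Manf, Atf6, Creb3l1 and Sec61a1. In windows of 300 bases, from 250 before to 50 after the start, ERSE matched 8 of the 31: Calr, Canx, Creld2, Dnajc3, Hsp90b1 (with 2 matches), Hspa5, Pdia6 and Syvn1. It matched 0.137% of the 27025 genes with such a window. ERSE-II matched Herpud1 and Dnajb11 (0.0444% of genes), UPRE matched Sec24d and Sec23a (0.714%), and AARE matched Herpud1 and Chac1 (1.03%). None of the 4 motifs overlapped another at these matches. A match describes the letters of the window only. Of the 8 members with an ERSE, 1 was higher in the knockout (Hsp90b1), 1 was lower (Dnajc3), and 6 did not pass the test, so 25% were called beside 48.3% of all tested genes.

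Of the 36 members, 14 differed between the genotypes, which is 38.9% against 48.3% of all tested genes. Among them 8 were higher in the knockout (25.6% of all tested genes were) and 6 were lower (22.7%). The median log2 fold change over the members was −0.01, beside 0.02 over all tested genes. Only Trib3 was both called and changed at least 2-fold, where 13.2% of all tested genes were. All 36 members together summed to 4609 ± 576 CPM in wild type libraries and 4703 ± 574 in knockout libraries (SD, n = 8 each). As a share of unscaled counts they took 0.415% ± 0.0605 and 0.521% ± 0.0575. These readings use different scaling. With total counts in place of TMM, the median log2 fold change of all genes was 0.32 in place of 0.02, 85.4% of all called genes were higher against 53.0% with TMM, and 20 members were called higher and 2 lower (Dnajc3 and Sec61b). The values below are relative to the bulk of genes, as TMM sets it.

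**Figure D1:**
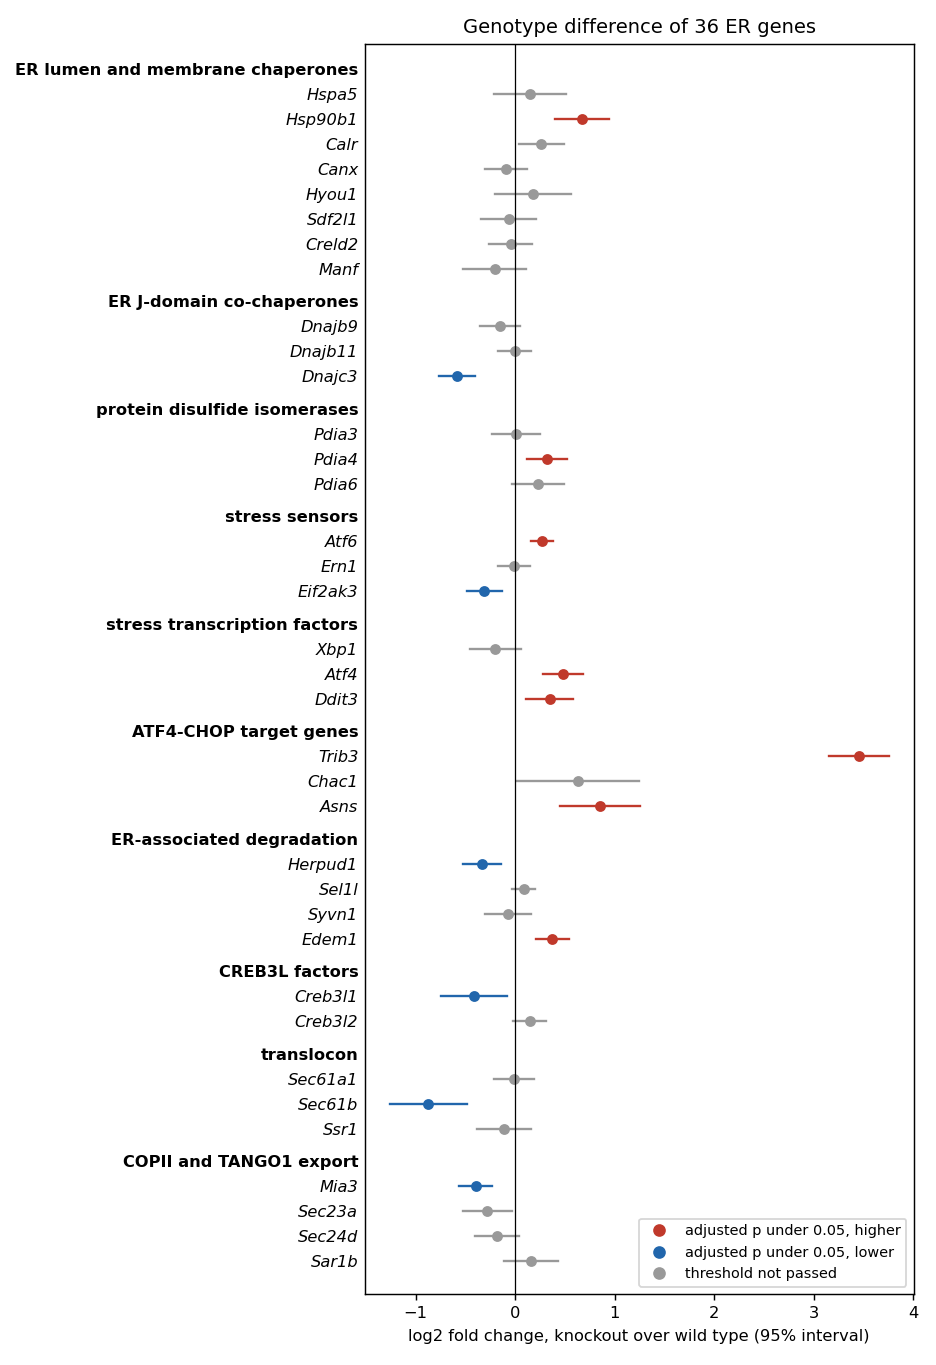
Log2 fold change of knockout over wild type with its 95% interval for each of the 36 members, grouped by role; colours mark genes past an edgeR adjusted p of 0.05. Trib3 stands alone at 3.45, and every other called member lies between −0.87 (Sec61b) and 0.85 (Asns).

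Most chaperones of the ER lumen and membrane did not pass the test, with 1 of 8 higher and none lower (12.5% called, beside 48.3% of all tested genes). Hspa5 encodes BiP, the main chaperone of the lumen and the protein that holds the stress sensors inactive. It read between 198 and 475 CPM in the wild type (median 282) and between 225 and 413 in the knockout (median 297). The wild type held both the lowest and the highest of the 16 libraries. The log2 fold change was 0.15, with a 95% interval from −0.21 to 0.51 (edgeR adjusted p = 0.489). At this spread a rise in BiP transcripts of up to 0.51, or a fall of up to 0.21, could have been missed.

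Hsp90b1, which encodes GRP94, the HSP90 of the ER, was the exception. It read between 227 and 365 CPM in the wild type (median 279) and between 329 and 595 in the knockout (median 443). All but 1 knockout library lay above the highest wild type library. The log2 fold change was 0.67 (SE 0.130, edgeR adjusted p = 2.71e-04). Exons of Hsp90b1 overlap those of 3 other annotated genes, 2 of them on the same strand, and the use of strand during counting is not given, so its counts are to that extent uncertain. Overlap with another gene holds for 11 of the 36 members, among the called ones also for Pdia4, Eif2ak3 and Ddit3.

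Calr and Canx encode calreticulin and calnexin, the lectin chaperones of glycoproteins. Calr ran from 245 to 378 CPM in the wild type and from 252 to 434 in the knockout (log2 fold change 0.26, 95% interval from 0.03 to 0.49), and its edgeR adjusted p of 0.0540 missed the threshold. Canx ran from 350 to 526 and from 310 to 497 (−0.09, edgeR adjusted p = 0.468). The remaining chaperone genes Hyou1, Sdf2l1, Creld2 and Manf had log2 fold changes between −0.21 and 0.18, and for each the 2 groups overlapped. Manf, whose protein binds BiP, had the lowest of these values and Hyou1, which recharges BiP with nucleotide, the highest.

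Dnajc3, one of the J-domain partners that deliver clients to BiP, fell. Its protein, P58IPK, is also known to restrain PERK and other eIF2α kinases. It read between 146 and 206 CPM in the wild type (median 164) and between 85.3 and 132 in the knockout (median 114), with no overlap. It was the only member lower without overlap, where 8.61% of all tested genes were, and its log2 fold change was −0.59 (SE 0.0851, edgeR adjusted p = 1.11e-05). Dnajb9, which helps degradation and keeps IRE1 quiet, and Dnajb11, which binds unfolded chains, did not pass the test (−0.15, edgeR adjusted p = 0.206, and −0.01, edgeR adjusted p = 0.956).

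Among the disulfide isomerases Pdia4 rose, from a wild type range of 79.8 to 115 CPM to a knockout range of 93.7 to 141 (log2 fold change 0.32, SE 0.0956, edgeR adjusted p = 0.0102). In 4 knockout libraries it lay above every wild type library, and the rest overlapped. Pdia3, the isomerase that works with calnexin and calreticulin, ran from 257 to 383 and from 222 to 391 CPM (0.01, edgeR adjusted p = 0.950), and Pdia6 from 75.3 to 131 and from 71.0 to 135 (0.23, edgeR adjusted p = 0.130). Over the 14 chaperones, co-chaperones and isomerases, 2 rose, 1 fell and 11 did not pass the test. Called genes were thus 21.4% of the 14, beside 48.3% of all tested genes.

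The 3 sensors went different ways. Atf6 encodes the sensor that is cut in the Golgi to release a transcription factor. It ran from 51.4 to 64.8 CPM in the wild type (median 56.8) and from 65.4 to 73.7 in the knockout (median 68.2). The groups did not overlap, and the spread in each was narrow, so a small log2 fold change of 0.27 (SE 0.0509) passed the test (edgeR adjusted p = 2.06e-04). Eif2ak3, which encodes PERK, fell from a range of 72.8 to 102 CPM (median 77.5) to a range of 56.7 to 76.3 (median 69.2), with 5 knockout libraries below every wild type library (−0.31, SE 0.0847, edgeR adjusted p = 0.00526). Ern1, which encodes IRE1α, had nearly the same range in both groups, from 41.3 to 56.2 and from 40.1 to 56.2 CPM (−0.01, 95% interval from −0.17 to 0.15, edgeR adjusted p = 0.905).

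The transcription factors of the response also parted. Atf4 read between 95.04 and 143 CPM in the wild type (median 118) and between 129 and 200 in the knockout (median 157), and 7 of 8 knockout libraries lay above the highest wild type library (0.48, SE 0.0974, edgeR adjusted p = 4.14e-04). Ddit3, which encodes CHOP, read between 11.9 and 15.997 CPM in the wild type (median 13.9) and between 12.5 and 22.5 in the knockout (median 17.4). Of its knockout libraries 5 lay above every wild type library (0.35, SE 0.112, edgeR adjusted p = 0.0155). The symbol Ddit3 has a second, short identifier in the files whose exons lie within the first, and its log2 fold change was 0.39 (edgeR adjusted p = 0.0539), so the split of reads between them is uncertain. Xbp1 ran from 98.4 to 198 CPM and from 100.4 to 138 (−0.20, edgeR adjusted p = 0.188), and counts per gene do not separate its spliced from its unspliced form. Nor do these counts measure ATF4 protein, which is set mainly by translation.

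The genes that ATF4 and CHOP are known to activate include the member with the largest difference. Trib3, which encodes a pseudokinase that restrains ATF4 and AKT signalling, read between 2.58 and 4.25 CPM in the wild type (median 2.99) and between 24.4 and 43.6 in the knockout (median 34.4). The lowest knockout library was far above the highest wild type library, and Trib3 and Atf6 were the 2 members higher without overlap, where 10.8% of all tested genes were (19.4% in either direction). The log2 fold change of Trib3 was 3.45 (SE 0.144, edgeR adjusted p = 3.55e-13), or 10.9-fold.

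Asns, the enzyme that makes asparagine, ran from 14.6 to 30.8 CPM in the wild type (median 23.3) and from 27.4 to 68.1 in the knockout (median 38.3), with 6 knockout libraries above every wild type library (0.85, SE 0.191, edgeR adjusted p = 0.00124). Chac1, which degrades glutathione, ran from 3.59 to 16.3 CPM (median 9.45) and from 6.71 to 22.6 (median 14.7). Its groups overlapped widely and it missed the threshold (0.63, 95% interval from 0.02 to 1.24, edgeR adjusted p = 0.0809). It passed without knockout replicate 6 (0.73, edgeR adjusted p = 0.0417). Without wild type replicate 3, its lowest library, the difference was smaller and missed the threshold (0.50, edgeR adjusted p = 0.128).

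**Figure D2:**
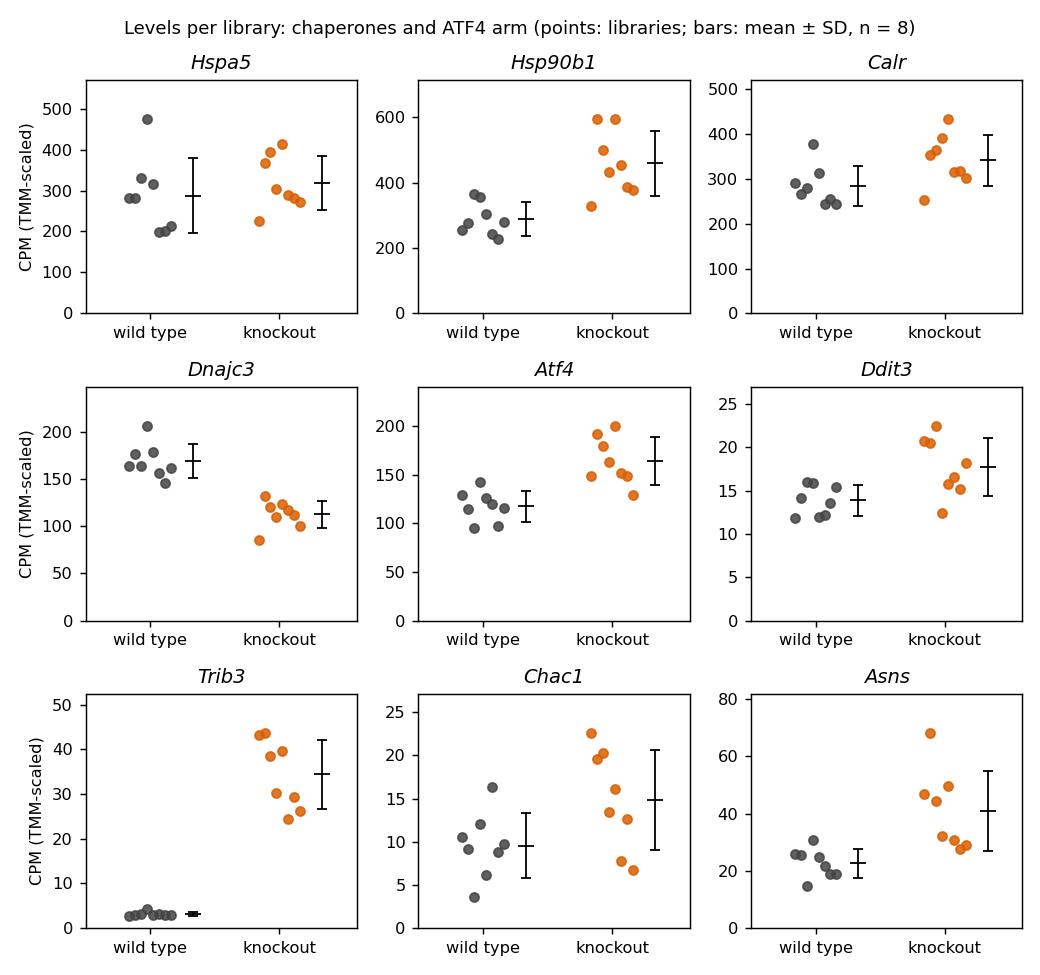
TMM-scaled CPM of 9 members in each of the 8 wild type and 8 knockout libraries (points), with mean ± SD (bars). Hspa5 overlaps over its whole range, Dnajc3 and Trib3 separate the groups in opposite directions, and Hsp90b1 and Atf4 each leave 1 knockout library within the wild type range.

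ER-associated degradation draws misfolded proteins out of the ER and hands them to the proteasome. Edem1, whose lectin-like protein selects glycoproteins for this route, rose from a range of 72.7 to 101 CPM (median 83.5) to a range of 95.3 to 125 (median 106), with 5 knockout libraries above every wild type library (0.37, SE 0.0778, edgeR adjusted p = 5.23e-04). Herpud1, a scaffold of the HRD1 ligase complex whose promoter above holds both an ERSE-II and an AARE, fell. It ran from 139 to 208 CPM in the wild type (median 178) and from 116 to 163 in the knockout (median 138), with 5 knockout libraries below every wild type library (−0.33, SE 0.0899, edgeR adjusted p = 0.00453). The ligase Syvn1 and its partner Sel1l did not pass the test (−0.07, edgeR adjusted p = 0.608, and 0.08, edgeR adjusted p = 0.215).

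At the entry of the secretory route, Sec61b, the β subunit of the translocon, fell from a range of 37.9 to 89.8 CPM (median 53.6) to a range of 22.9 to 44.7 (median 28.4). Of its knockout libraries 6 lay below every wild type library (−0.87, SE 0.185, edgeR adjusted p = 8.06e-04). The pore subunit Sec61a1 and the translocon-associated Ssr1 did not pass the test (−0.01, edgeR adjusted p = 0.924, and −0.11, edgeR adjusted p = 0.487).

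At the exit, Mia3 fell. It read between 195 and 284 CPM in the wild type (median 269) and between 166 and 222 in the knockout (median 193), with 5 knockout libraries below every wild type library (−0.39, SE 0.0795, edgeR adjusted p = 3.82e-04). The lowest wild type value was that of replicate 3, the library with the least type I collagen. The inner coat genes Sec23a and Sec24d had log2 fold changes of −0.28 (edgeR adjusted p = 0.0611) and −0.18 (edgeR adjusted p = 0.165), and the GTPase gene Sar1b, which starts coat assembly, 0.16 (edgeR adjusted p = 0.334).

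Creb3l1 fell by 0.42 on the log2 scale (SE 0.158, edgeR adjusted p = 0.0372), with wide overlap: from 110 to 223 CPM in the wild type (median 181) and from 68.9 to 171 in the knockout (median 130). Only knockout replicate 6 lay below every wild type library. Creb3l2, whose protein is known in cartilage to drive Sec23a, ran from 67.7 to 94.3 and from 80.7 to 105 CPM (0.14, edgeR adjusted p = 0.135).

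Per kilobase of exon, the most abundant members in the wild type were Calr at 98.7 CPM per kilobase, Pdia3 at 97.3 and Canx at 91.7. In the knockout Calr was at 118 CPM per kilobase and Hsp90b1 at 114, ahead of Pdia3 at 98.0. Trib3 went from 1.46 to 16.2 CPM per kilobase, which in the knockout was above the chaperone genes Creld2 (14.4), Manf (13.1), Hyou1 (8.602) and Sdf2l1 (6.82) and below the other 4. Creb3l1, at 67.6 and 50.7 CPM per kilobase, was more abundant than Atf4 in the wild type (49.9) and less so in the knockout (69.6).

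Other genes of the same routes were taken from 5 further lists with 168 tested genes, 37 of them higher and 42 lower. The 47.0% that differed between genotypes were near the 48.3% of all tested genes (25.6% higher and 22.7% lower). Further folding enzymes had 5 of 32 higher and 10 lower (median log2 fold change −0.12). Ero1l, the oxidase that recharges disulfide isomerases and a known HIF target, rose from 19.2 ± 1.10 to 146 ± 24.1 CPM (2.93, edgeR adjusted p = 6.80e-15) and the isomerase Pdia5 from 8.47 ± 1.90 to 14.2 ± 1.62 (0.74, edgeR adjusted p = 3.61e-05). Fkbp9, a prolyl isomerase of the ER, fell from 1474 ± 308 to 525 ± 92.3 CPM (−1.49, edgeR adjusted p = 3.79e-08). Uggt2, of the family that tags unfolded glycoproteins for another folding round, fell from 48.1 ± 5.14 to 32.5 ± 3.13 (−0.57, edgeR adjusted p = 3.63e-06).

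Further degradation genes had 3 of 20 higher and 8 lower (median −0.15). Nploc4 and Edem2 rose by log2 fold changes of 0.27 (edgeR adjusted p = 0.00392) and 0.24 (edgeR adjusted p = 0.0146), while the lectin gene Erlec1 and the ligase gene Rnf139 had values of −0.54 (edgeR adjusted p = 5.61e-07) and −0.35 (edgeR adjusted p = 7.40e-05). Genes of the translocon, signal peptidase and oligosaccharyltransferase had 3 of 31 higher and 9 lower (median −0.11). Sec61a2 and the signal recognition gene Srp68 rose (0.32 and 0.21), and Sec62 and Ssr4 fell (−0.42 and −0.49), although with total counts they missed the threshold (−0.12, edgeR adjusted p = 0.288, and −0.19, edgeR adjusted p = 0.169). COPII, cargo receptor and retrieval genes had 3 of 46 higher and 13 lower (median −0.11). Tmed7 and Ergic2 rose (0.33 and 0.25), and Sec16b, which organises exit sites, and Ergic1 fell (−0.56 and −0.41). In these 4 lists more genes were lower than higher, where 22.7% of all tested genes were lower and 25.6% higher. In the order given, 46.9%, 55%, 38.7% and 34.8% of their genes were called, beside 48.3% of all tested genes. Their medians lay between −0.11 and −0.15, beside 0.02 for all tested genes.

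The fifth list, of ATF4 and integrated stress response genes, went the other way, with 24 of 40 higher and 2 lower (median 0.31), beside 25.6% and 22.7% of all tested genes. Like the other lists, it was chosen with earlier results of these data known. In this list 17 genes were higher without overlap, beside 10.8% of all tested genes. Ero1l is in this list too. Stc2, a secreted glycoprotein gene that is also a known HIF target, rose from 2.53 ± 0.981 to 100 ± 21.2 CPM (5.31, edgeR adjusted p = 1.39e-12). Among genes picked after their values were seen, Ppp1r15a, the phosphatase subunit that reverses eIF2α phosphorylation, rose from 12.97 ± 2.66 to 25.2 ± 4.78 CPM (0.95, edgeR adjusted p = 4.89e-06). Atf3 rose from 3.38 ± 1.31 to 8.93 ± 1.62 (1.39, edgeR adjusted p = 6.40e-06), and the amino acid transporter Slc7a5 from 45.4 ± 11.5 to 108 ± 19.9 (1.25, edgeR adjusted p = 1.46e-06). The list was not uniform: the cystine transporter Slc7a11 fell from 119 ± 38.5 to 59.7 ± 30.8 CPM (−0.99, edgeR adjusted p = 0.0145), and Slc1a5 fell by 0.19 on the log2 scale (edgeR adjusted p = 0.0237).

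**Figure D3:**
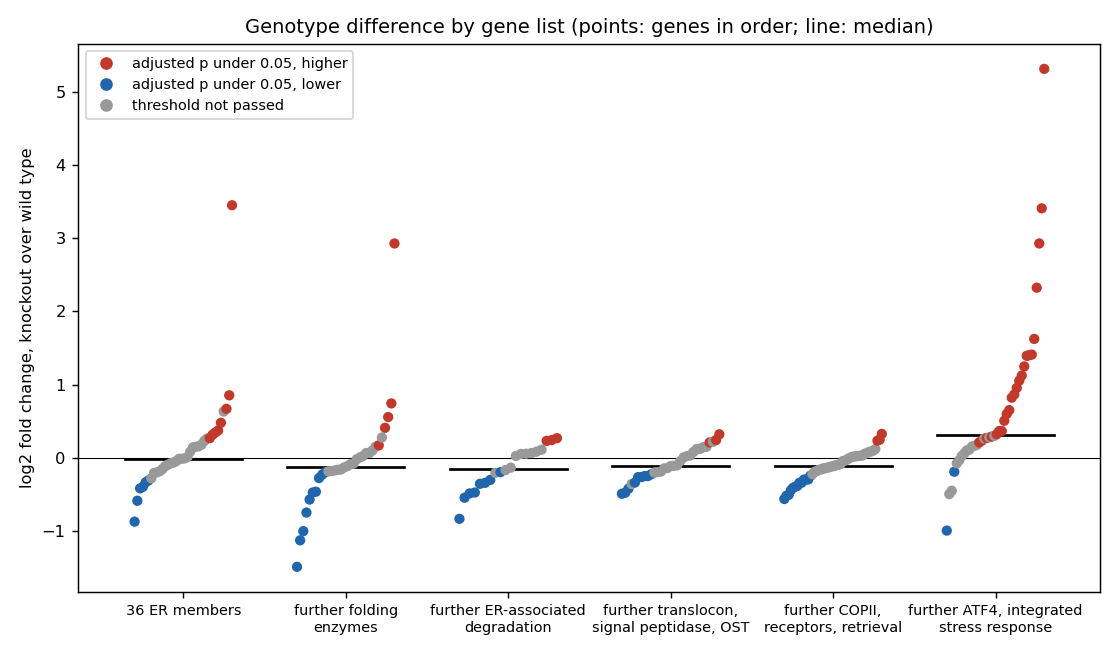
Log2 fold change of knockout over wild type for each gene of the 36 members and of the 5 further lists, in order within a list, with the list's median as a line; colours mark genes past an edgeR adjusted p of 0.05. The medians of 4 further lists lie between −0.15 and −0.11 and that of the ATF4 list at 0.31.

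The members were then set against type I collagen itself. A second edgeR fit had genotype and the log2 of summed Col1a1 and Col1a2 CPM as terms, so that each gene's slope is the log2 change per doubling of collagen transcripts among libraries of one genotype. The slope shares its library and scaling with the gene's own level, and 1.45% of all tested genes passed. Cell type markers had slopes too. All 16 skeletal muscle markers had negative ones (median −2.51), none past the threshold. The same held for all tested markers of endothelium (7), mural cells (6) and erythroid cells (5). All 7 tested chondrocyte markers had positive slopes, 2 of them past the threshold. Beyond a fit with the muscle score, the part of tissue make-up in this fit was not tested. All 3 members that passed had positive slopes (0.75% of all tested genes were called positive and 0.703% negative), and 23 of 36 members had a positive sign against 50.4% of all tested genes.

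Creb3l1 had the fifth smallest p of 14803 genes, behind Col1a1 and Col1a2, which make up the measure, and Stmn2 and Serpine2. Its slope was 0.69 (SE 0.0883, edgeR adjusted p = 8.71e-04). It passed in each genotype fitted with its own slope, at 0.55 in the wild type (SE 0.0984, edgeR adjusted p = 0.0148) and 0.95 in the knockout (SE 0.125, edgeR adjusted p = 0.00469). Knockout replicate 6 had the least collagen and stood apart as the lowest knockout library for Creb3l1. The separate slopes were not refitted without it. The difference between these slopes did not pass the test (edgeR adjusted p = 0.508), and by this rule 0.851% of all tested genes were called among wild type libraries and 0.0135% among knockout libraries.

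Chac1 had a slope of 1.14 (SE 0.208, edgeR adjusted p = 0.0120) and Mia3 one of 0.29 (SE 0.0637, edgeR adjusted p = 0.0281). Without wild type replicate 3 both missed the threshold while their slopes stayed near these sizes, at 1.12 for Chac1 (edgeR adjusted p = 0.0656) and 0.25 for Mia3 (edgeR adjusted p = 0.147). Without knockout replicate 6, the library with the least collagen, Chac1 passed (1.15, edgeR adjusted p = 0.0437) and Mia3 missed the threshold (0.30, edgeR adjusted p = 0.0863). With a slope for each genotype neither gene passed in either. Chac1 had 1.18 in the wild type (edgeR adjusted p = 0.0742) and 1.08 in the knockout (edgeR adjusted p = 0.198). Mia3 had 0.33 (edgeR adjusted p = 0.0665) and 0.22 (edgeR adjusted p = 0.357). Creb3l1 passed in all 8 alternatives of this fit, with slopes between 0.58 and 0.81. Among the further lists 3 genes passed, all with positive slopes: the procollagen prolyl isomerase Fkbp10 (0.48, edgeR adjusted p = 0.0287), the translocation gene Tram2 (0.38, edgeR adjusted p = 0.00512) and Slc7a5 (0.54, edgeR adjusted p = 0.0246).

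None of the folding genes passed. With 1 slope for both genotypes all 8 chaperones had negative estimates, from −0.23 for Hsp90b1 and −0.22 for Canx to a value near 0 for Creld2. With a slope for each genotype the signs were mixed, with 1 of the 8 positive among wild type libraries (Calr) and 5 positive among knockout libraries, and again none passed. Hspa5 had a slope of −0.06 (SE 0.199, edgeR adjusted p = 0.917). Of the 14 chaperones, co-chaperones and isomerases 12 had a negative sign in the fit with 1 slope.

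**Figure D4:**
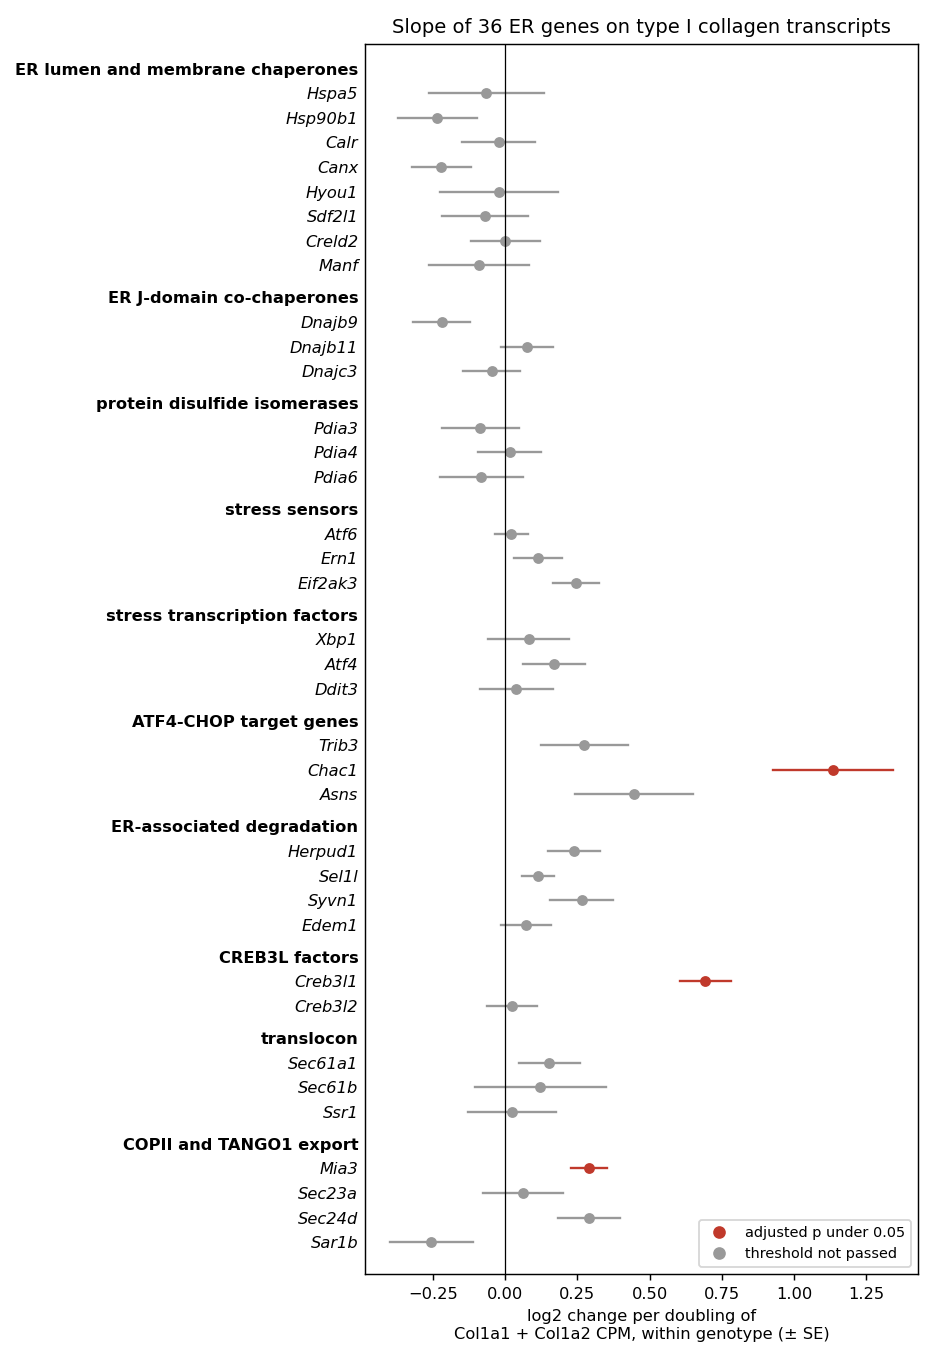
Log2 change of each of the 36 members per doubling of summed Col1a1 and Col1a2 CPM within genotype, with its SE; colour marks slopes past an edgeR adjusted p of 0.05. Chac1 (1.14), Creb3l1 (0.69) and Mia3 (0.29) pass, and the 8 chaperones lie left of 0.

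The same fit gives the genotype difference at equal type I collagen, which passed for 33% of all tested genes and for 10 members. Because 7 of 8 wild type libraries had more collagen than every knockout library, this comparison leans on the fitted slope and on wild type replicate 3. The ATF4 targets were all higher: Trib3 by a log2 fold change of 3.74 (edgeR adjusted p = 1.72e-10), Chac1 by 1.93 (edgeR adjusted p = 5.29e-05) and Asns by 1.36 (edgeR adjusted p = 0.00161). Edem1 was higher by 0.45 (edgeR adjusted p = 0.00830), and Dnajc3 remained lower at −0.64 (edgeR adjusted p = 0.00144). These 5 passed in all 8 alternatives tried. In the alternative without wild type replicate 3, every wild type library had more collagen than every knockout library. That fit therefore rests on the fitted slope alone.

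Atf4 (0.67, edgeR adjusted p = 0.00244) and Atf6 (0.29, edgeR adjusted p = 0.0110) passed as well, but without wild type replicate 3 they did not, at 0.52 (edgeR adjusted p = 0.0748) and 0.22 (edgeR adjusted p = 0.187). Sel1l passed at 0.21 (edgeR adjusted p = 0.0493) and Dnajb9 at −0.40 (edgeR adjusted p = 0.0347). Without wild type replicate 3 both missed the threshold with differences at least as large, 0.24 (edgeR adjusted p = 0.139) and −0.45 (edgeR adjusted p = 0.108). Without knockout replicate 6 they missed it at 0.21 (edgeR adjusted p = 0.0719) and −0.37 (edgeR adjusted p = 0.0598). The count of 10 members called at equal collagen also moved with the processing. It was 9 with DESeq2 size factors, 8 with no expression filter and 13 with total counts. With a mean count of at least 10 it was 9.

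Creb3l1 changed sign, from −0.42 without the collagen term to 0.33 with it (SE 0.118, edgeR adjusted p = 0.0369), although without knockout replicate 6 it missed the threshold (0.26, edgeR adjusted p = 0.0590). For 3 of the 6 members that were lower, the estimate moved close to 0: Mia3 had −0.07 (SE 0.0890, edgeR adjusted p = 0.615), Herpud1 −0.06 (SE 0.126, edgeR adjusted p = 0.746) and Eif2ak3 −0.04 (SE 0.111, edgeR adjusted p = 0.846). Sec61b kept a log2 fold change of −0.73 that missed the threshold (SE 0.311, edgeR adjusted p = 0.0831), as did Hsp90b1 at 0.42 (SE 0.198, edgeR adjusted p = 0.119).

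**Figure D5:**
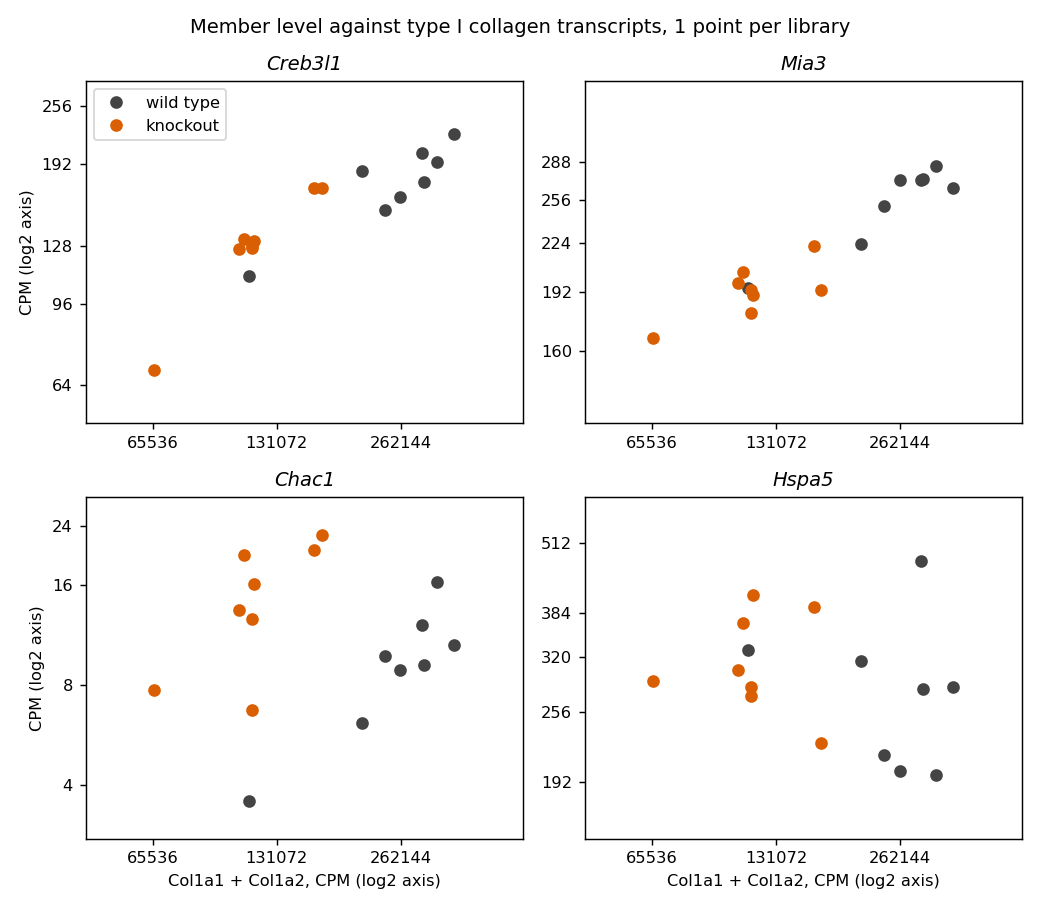
TMM-scaled CPM of Creb3l1, Mia3, Chac1 and Hspa5 (log2 axis) against summed Col1a1 and Col1a2 CPM (log2 axis), with 1 point for each of 16 libraries. Creb3l1 rises with collagen in both groups, Chac1 rises at a higher level in the knockout, and Hspa5 overlaps between groups, with 198 to 475 CPM in the wild type and 225 to 413 in the knockout.

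Muscle transcripts varied widely among libraries of both groups, so their score was also set against each member. No member had a muscle slope past the threshold (2.99% of all tested genes were called positive and 0.115% negative). With the muscle score as a term, Creb3l1 missed the threshold for genotype (−0.35, edgeR adjusted p = 0.101) and Chac1 passed it (0.90, edgeR adjusted p = 0.00956), while the other 13 called members remained called.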

How the data were processed

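The deposited files hold whole-number counts for 25719 mouse genes in 16 libraries, 8 wild type and 8 knockout, as grouped by their titles. Per the submitters' processing notes the tools were kallisto and featureCounts and the build GRCm39, with no roles or versions. The annotation and the use of strand are not given in the sources used here. From these counts as deposited, levels were computed as TMM-scaled CPM, and genes were tested with edgeR 4.0.16 in R 4.3.3 (robust quasi-likelihood F test, default expression filter, genotype as the only term), with Benjamini-Hochberg adjustment over 14803 genes. In no library did tested genes make up less than 99.7% of the counts. A second edgeR fit added the log2 of summed Col1a1 and Col1a2 CPM, and its genotype term is the difference at equal collagen. A count of 3, used as the floor, corresponded to between 0.145 and 0.336 CPM, and it covers counting error only. The fits were tested on simulated data with known changes. Of changes of 0.5 on the log2 scale, 55% were recovered for genotype and 38% for the collagen slope. Of changes of 1.0, 93% and 83% were recovered, so smaller differences can be missed. In the simulated genotype comparison 153 genes were called, where 7151 were called in the data. The adjusted threshold was therefore stricter there, and the genotype shares describe the simulation only.

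The members and lists were chosen with earlier results of these data known. Every member is named. In each further list, up to 2 genes that rose and 2 that fell with the smallest p are named, and others are said to have been chosen after their values were seen. Symbols came from the supplied name table, and 105 identifiers had none. Exon overlaps and exon lengths came from GENCODE M21 (GRCm38) and promoters from RefSeq (GRCm38.p6). As the build differs from that of the counts, no gene coordinates are given other than those of the promoters. All pairs of libraries differed by more than sampling noise (lowest chi-square per degree of freedom 6.54 over 14096 genes). The alternatives were DESeq2 size factors, total counts, TMM without the 20 most abundant genes, no filter, a mean count of at least 10, DESeq2 1.42.0, limma-voom 3.58.1, the replicate block, the muscle score, and the fits without wild type replicate 3 and without knockout replicate 6.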

Additional observations from a re-analysis of the deposited data

Results flagged for a closer look

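Each of 120 sets of 8 libraries of one gene and genotype was checked for a library far from the rest, and 7 stood out where chance gives about 1 in 20, or 6. Values are log2 CPM. Among the members, Trib3 in wild type replicate 4 was the highest of its group at 2.14, with the next at 1.75, which is still far below every knockout library. Creb3l1 in knockout replicate 6 was the lowest of its group at 6.11, with the next at 6.98. Creb3l2 in wild type replicate 8 was the lowest at 6.08, with the next at 6.35. In wild type replicate 3, Col1a1 was the lowest at 16.0005 (next 16.92), Col1a2 at 15.51 (next 16.42) and the degradation gene Erlec1 at 5.95 (next 6.30). In knockout replicate 6, the translocon gene Sec61a2 was the lowest at 4.98 (next 5.20). Results without wild type replicate 3 and without knockout replicate 6 stand in the report beside the values they change.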

How the results depend on the processing

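Across 11 alternatives the number of members called by genotype, 14 as reported, ran from 14 to 16, except with total counts, where 22 passed (20 higher, 2 lower) and Eif2ak3, Herpud1, Creb3l1 and Mia3 were lost. With total counts 8270 of all genes were higher and 1415 lower, 2971 passed for the collagen slope, 6 of them members, and these log2 fold changes turned positive: Canx 0.20, Sdf2l1 0.22, Creld2 0.25, Manf 0.085, Dnajb9 0.14, Dnajb11 0.30, Ern1 0.29, Xbp1 0.10, Syvn1 0.23, Sec61a1 0.29, Ssr1 0.18, Sec23a 0.024, Sec24d 0.12 and Slc1a5 0.11. Of the genes named from the further lists, Rnf139 (−0.049), Sec62 (−0.12), Ssr4 (−0.19), Ergic1 (−0.11) and Slc7a11 (−0.68) missed the threshold with total counts. Total counts give no allowance for the smaller share of collagen in the knockout. Members close to 0 changed sign elsewhere: Dnajb11 to 0.045 and Sec61a1 to 0.019 with the muscle score. Without wild type replicate 3 and without knockout replicate 6 in turn, Dnajb11 was at −0.023 and 0.015, Ern1 at −0.011 and 0.018 and Sec61a1 at −0.055 and 0.0033. Pdia3 moved to −0.0052 with DESeq2 size factors, −0.0053 with DESeq2 and −0.0035 with the replicate block. Sec23a passed with DESeq2 size factors, DESeq2, the replicate block and without wild type replicate 3, Calr with limma-voom, the block and total counts, and Chac1 with DESeq2, total counts, the muscle score and without knockout replicate 6.

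Without knockout replicate 6 the collagen slope passed in 107 genes instead of 215, and without wild type replicate 3 in 144. Fitted separately, it passed in 126 genes among wild type libraries and 2 among knockout libraries. Over members the count of 3 became 1 without wild type replicate 3 and 2 without knockout replicate 6, and 1 in each genotype alone. Mia3 also missed the threshold with total counts, no filter and the muscle score. The fit without knockout replicate 6, the separate slopes and the lists under every alternative were chosen after seeing the data. The cause was not tested for any of these.

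Same-numbered libraries did not pair: the correlations of their deviations ran from −0.397 to 0.394 (median −0.130), 3 of 8 were over 0.1, and 1 of 8 was best with its own number. With the replicate block 7010 genes were called instead of 7151, and 9 members were higher and 6 lower. Of the named genes, Creb3l1 (−0.43, edgeR adjusted p = 0.0742) and Slc1a5 (−0.19, edgeR adjusted p = 0.0627) missed the threshold with the block.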
